A study of Mus musculus with 3 samples.

Results

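TNF and its receptor complex were taken as 10 genes, found by symbol among the 32285 features counted in each library: the ligand Tnf, its sheddase Adam17, the receptors Tnfrsf1a and Tnfrsf1b, the signaling adaptors and kinase Tradd, Ripk1, Traf2 and Traf1, and the inhibitors Tnfaip3 and Cflar. All 10 were found, and all passed the minimum of 50 UMIs (unique molecular identifiers, which count RNA molecules) over the 3 libraries in macrophage/monocyte-like and FAP-like cells. The libraries were droplet single-cell RNA sequencing of tibialis anterior muscle of C57/BL6J mice without a genetic change, dissociated 4 days after an injection of barium chloride, which kills fibers and starts regeneration. They came from young mice given PBS (young PBS), old mice given PBS (old PBS) and old mice given recombinant meteorin-like protein (old rMETRNL), and both agents were injected into the damaged muscle. Each group was 1 library made from a pool of 3 samples. No difference below has a replicate check, and every interval covers counting error only. Ratios for age divide old PBS by young PBS, and ratios for treatment divide old rMETRNL by old PBS. Both use the same old PBS library, so that their opposite directions are not independent of each other.

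TNF is made on the cell surface as a trimer and is released by ADAM17 (also called TACE). Its receptor TNFR1 (Tnfrsf1a) is found on most cells and carries a death domain, which recruits TRADD and RIPK1 and through TRAF2 and ubiquitin ligases activates NF-kB. TNFR2 (Tnfrsf1b) has no death domain, is found mainly on leukocytes and endothelium, and binds TRAF2 directly, with TRAF1 recruited mainly through TRAF2. A20 (Tnfaip3) is an NF-kB target that edits ubiquitin chains and shuts the signal off, and c-FLIP (Cflar) blocks caspase-8, so that a cell with little c-FLIP can die in response to TNF. In injured muscle, TNF from macrophages is known to act on fibro-adipogenic progenitors (FAPs), the stromal cells that support regeneration and can form scar.

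The promoters of the ligand and of its feedback inhibitor are shown because Tnfaip3 was the member with an NF-kB match in its window, whereas the Tnf window held none. The windows run from 250 bases before to 50 after a RefSeq start site (GRCm38.p6, minus strand for both, 5′ to 3′). The Tnf window is chr17:35201958-35202257 and the Tnfaip3 window, the upstream of its 2 RefSeq starts, is chr10:19015361-19015660. Capitals mark the motif TATAAA in Tnf, at position -29 from the start, and both matches to the 10-base NF-kB consensus in Tnfaip3, at -125 and -12.
Tnf promoter: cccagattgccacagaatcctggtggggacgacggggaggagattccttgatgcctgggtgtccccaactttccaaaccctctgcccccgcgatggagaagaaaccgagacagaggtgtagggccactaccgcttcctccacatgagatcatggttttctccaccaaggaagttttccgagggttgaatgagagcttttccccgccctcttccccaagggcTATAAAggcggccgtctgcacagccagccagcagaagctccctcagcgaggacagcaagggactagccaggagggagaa
Tnfaip3 promoter: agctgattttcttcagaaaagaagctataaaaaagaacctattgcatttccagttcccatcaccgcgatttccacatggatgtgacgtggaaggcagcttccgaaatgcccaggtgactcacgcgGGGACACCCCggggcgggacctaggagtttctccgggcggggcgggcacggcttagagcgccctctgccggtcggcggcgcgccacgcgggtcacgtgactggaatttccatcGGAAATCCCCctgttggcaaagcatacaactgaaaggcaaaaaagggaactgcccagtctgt
Of the 10 genes, 9 had a promoter in the RefSeq table, in 11 windows, and only this Tnfaip3 window held the NF-kB consensus on either strand. The consensus was in 8.46% of all 32851 promoters, the AP-1 motif TGANTCA in 7.81% and TATAAA in 13.6%. The Tnfaip3 window also held the AP-1 motif at -136 and TATAAA at -225, and the Cflar window held 2 matches to TATAAA that overlap each other on opposite strands. A match is a description of letters in the window, and enhancers farther away were not searched. In GRCm38 the genes lie at chr17:35199381-35202007 (Tnf), chr12:21323509-21373632 (Adam17), chr6:125349362-125362484 (Tnfrsf1a), chr4:145213463-145246870 (Tnfrsf1b), chr8:105258286-105264609 (Tradd), chr13:34002363-34037147 (Ripk1), chr2:25517982-25546940 (Traf2), chr2:34941750-34961772 (Traf1), chr10:19000910-19015657 (Tnfaip3) and chr1:58711508-58758884 (Cflar).

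The 3 libraries held 12168 to 14012 barcodes and 179295668 to 228966697 UMIs, and 31589 cells were kept, with a median of 13681 to 15092 UMIs per cell. Cells fell into 23 clusters, and 8 classes named from their markers had at least 100 cells in each library. In each of these 8 classes every listed marker was higher than in the rest of the cells. Endothelial-like cells differed in depth, with medians of 11221 UMIs (young PBS), 3911.5 (old PBS) and 7239 (old rMETRNL), and most myocyte-like cells were Myog and Myh3 cells in young PBS but shallow fiber droplets led by Ckm and Pvalb in old PBS. The libraries shared 58 to 80 barcodes by pair, 24 to 33 of them among kept cells. Levels are CPM, the UMIs of a gene scaled to the same total of UMIs in each class and library. Sets of 3 values are always in the order young PBS, old PBS, old rMETRNL, and ratios have 95% intervals.

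Tnf RNA was almost wholly in macrophages and monocytes, at nearly the same level in the 3 libraries. The macrophage/monocyte-like class held 95.1%, 95.4% and 93.5% of all Tnf UMIs. Its Tnf level was 156 CPM for young PBS, 157 for old PBS and 148 for old rMETRNL. The age ratio was 1.01 (95% interval 0.987 to 1.03) and the treatment ratio 0.943 (0.923 to 0.965), so that the libraries were close. The small differences turned direction with other settings, where the log2 ratio ranged from -0.11 to 0.21 for age and from -0.23 to 0.014 for treatment. Over all kept cells Tnf was 84.9, 104 and 86.4 CPM, an age ratio of 1.23 that the macrophage class itself did not have.

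Within the class, Tnf was uneven from cell to cell. With each cell thinned to 2000 UMIs, 21.1% (exact binomial 95% interval 20.1 to 22.2), 23.6% (22.5 to 24.7) and 21.1% (20.1 to 22.1) of macrophage/monocyte-like cells held a Tnf UMI, against 0.281%, 0.543% and 0.275% of MuSC/myoblast-like cells, taken as the comparison for background RNA. Without thinning the shares were 51.4%, 57.4% and 53.1% in macrophages, at median depths of 14219, 14770 and 14657 UMIs, and 3.70%, 7.14% and 4.66% in the muscle cells, at 26776.5, 24843.5 and 29088. The 10% of macrophage/monocyte-like cells with most Tnf held 57.9%, 54.3% and 57.2% of its UMIs, whereas for Tnfrsf1a the same share of cells held 31.8%, 32.0% and 31.9%. The highest single cell had 91, 78 and 92 Tnf UMIs.

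Among the other 7 classes compared, endothelial-like cells had the most Tnf, at 25.1, 39.5 and 23.9 CPM (252, 264 and 274 UMIs). This was 16.1%, 25.1% and 16.1% of the macrophage level of the same library, while the 13 macrophage/monocyte markers stood at a median of 1.94%, 4.21% and 3.38% of their macrophage level there and none was above 5.47%, 6.996% and 6.58%. As a share of the macrophage level, Tnf in these cells was thus above every macrophage marker. It was also uneven among the endothelial clusters. The cluster led by Gpihbp1, Cldn5 and Cdh5 had 29.4, 52.3 and 26.4 CPM, and the one led by Selp, Lrg1 and Ackr1 had 5.01, 1.40 and 6.36 CPM (10, 2 and 13 UMIs). The summed macrophage markers were 757, 1451 and 778 CPM in the Selp cluster and 512, 1218 and 1113 in the Gpihbp1 cluster, higher in the Selp cluster in both PBS libraries and lower in old rMETRNL, and their part in the Tnf level was not tested. The third endothelial cluster, led by Rgs5, Clu and Stmn2, had 33.7, 37.8 and 36.2 CPM. Its 10 leading genes held the endothelial markers Ptprb and Cldn5 but also Rgs5 and Myh11 of the pericyte/smooth muscle list. The median depth of the Gpihbp1 cluster also differed, at 9769, 2974.5 and 4686 UMIs, and its part in the Tnf difference was not tested.

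A cluster led by S100a9, S100a8 and Ifitm6, with too few cells in old PBS to be compared (44), had Tnf at 157, 307 and 226 CPM on 138, 84 and 317 UMIs. Only 4 of the 8 neutrophil markers were detected in it, the monocyte genes Ly6c2, Plac8 and Chil3 were among its leading genes, and its macrophage markers summed to 23046.5, 17811.9 and 23903.9 CPM, so that it is not named. The remaining classes compared had lower values. Dendritic-like cells had 21.2, 17.1 and 22.4 CPM, and T/NK-like cells had 21.0, 5.73 and 19.0 CPM on only 34, 9 and 17 UMIs. Tenocyte-like cells had 3.36, 2.91 and 3.80 CPM and FAP-like cells 1.76, 2.70 and 2.47 CPM. In FAP-like cells Tnf was 1.13%, 1.72% and 1.67% of the macrophage level, within the range of the 13 macrophage markers in those cells (0.541% to 14.5%, 0.707% to 13.2% and 0.698% to 12.9%) but above their medians of 0.728%, 0.888% and 0.946%. With the FAP sub-clusters kept that had been left out for leading macrophage markers or low UMIs, the log2 ratio of Tnf in FAP-like cells was 1.49 for age and -0.69 for treatment, against 0.62 and -0.13 without them. MuSC/myoblast-like cells had 2.32, 7.61 and 2.36 CPM and myocyte-like cells 1.86, 13.4 and 2.61 CPM, both highest in old PBS. In old PBS these were 4.84% and 8.55% of the macrophage level, above the highest macrophage marker (3.71% and 4.37%), on 42 and 33 UMIs. Over the 8 classes macrophage/monocyte, endothelial and dendritic were the top 3 with no overlap between neighbors over the libraries, dendritic down to tenocyte each overlapped the next, and FAP stood lowest.

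**Figure D1:**
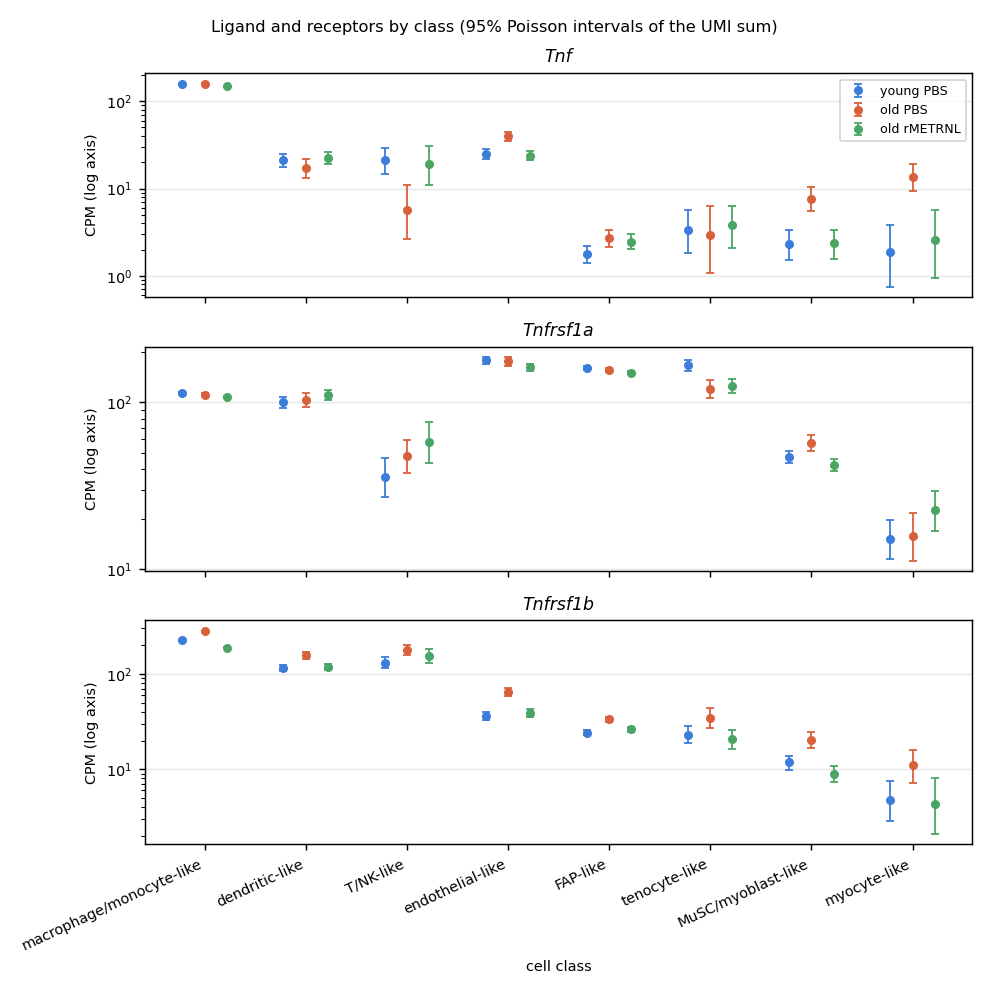
CPM (log axis) of Tnf, Tnfrsf1a and Tnfrsf1b in 8 cell classes; points are the young PBS, old PBS and old rMETRNL libraries and bars are exact 95% Poisson intervals of the UMI sum. Tnf stood at 148 to 157 CPM in macrophage/monocyte-like cells and under 40 CPM elsewhere, Tnfrsf1a was spread over stroma, endothelium and myeloid cells, and the old PBS point of Tnfrsf1b was the highest of the 3 in every class.

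Adam17, which cleaves TNF and also its receptors from the surface, was highest in the same cells as the ligand. It stood at 131, 147 and 126 CPM in macrophage/monocyte-like cells and at 49.6, 59.0 and 52.8 CPM in FAP-like cells. Both classes had their highest value in old PBS. The macrophage ratios were 1.12 (1.10 to 1.15) for age and 0.856 (0.836 to 0.877) for treatment. Endothelial-like cells had 41.0, 48.8 and 46.3 CPM, and myocyte-like cells were lowest at 20.2, 22.4 and 20.4 CPM.

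Tnfrsf1a was spread over endothelial, stromal and myeloid cells, and its level was close between libraries in endothelial-like and FAP-like cells. Macrophage/monocyte-like cells, the most numerous, held 47.9%, 58.7% and 50.2% of its UMIs and FAP-like cells 31.8%, 25.8% and 28.8%. Endothelial-like cells had 179, 176 and 163 CPM, FAP-like cells 161, 157 and 151, and tenocyte-like cells 166, 120.2 and 125. Macrophage/monocyte-like cells had 114, 111 and 108 CPM and dendritic-like cells 100.3, 104 and 110.3. In FAP-like cells the age ratio was 0.977 (0.941 to 1.01) and the treatment ratio 0.959 (0.924 to 0.995), which turned direction at a finer clustering. Some other classes differed more. In tenocyte-like cells the age ratio was 0.722 (0.622 to 0.836) and the ratio of old rMETRNL over young PBS 0.753 (0.668 to 0.848). MuSC/myoblast-like cells, the stem and progenitor cells of the fiber, had 47.1, 57.3 and 42.3 CPM, T/NK-like cells 35.8, 47.8 and 58.2, and myocyte-like cells 15.2, 15.9 and 22.6. In MuSC/myoblast-like cells the age ratio was 1.22 (1.06 to 1.40) and the treatment ratio 0.739 (0.641 to 0.852). For old rMETRNL over young PBS the ratio was 1.63 (1.096 to 2.40) in T/NK-like cells and 1.49 (1.004 to 2.21) in myocyte-like cells. In the order of the means, endothelial came first, with no overlap with FAP, and tenocyte came after FAP, overlapping both. Then came macrophage and dendritic, which overlapped each other, MuSC/myoblast and T/NK, which overlapped each other, and myocyte last.

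Tnfrsf1b was the receptor of leukocytes and the member that differed most evenly between libraries. It was 226, 281 and 187 CPM in macrophage/monocyte-like cells, 132, 179 and 156 in T/NK-like cells, and 117, 157 and 118 in dendritic-like cells. Endothelial-like cells had 36.1, 65.0 and 38.9 CPM and FAP-like cells 24.02, 33.4 and 26.2. In each of these the old PBS library was the highest. Tenocyte-like cells had 23.0, 34.4 and 20.6 CPM, MuSC/myoblast-like cells 11.8, 20.3 and 9.01, and myocyte-like cells 4.79, 11.0035 and 4.35 on 18, 27 and 10 UMIs. The macrophage ratios were 1.24 (1.22 to 1.26) for age and 0.666 (0.654 to 0.678) for treatment, and old rMETRNL stood below young PBS at 0.827 (0.812 to 0.843). In FAP-like cells the ratios were 1.39 (1.28 to 1.52) and 0.784 (0.720 to 0.854). The age ratio was above 1 in 8 of 8 classes with its interval above 1 in all 8 (1.24 to 2.3), and the treatment ratio was below 1 in 8 of 8 (0.395 to 0.869) with its interval below 1 in 7, the T/NK-like class being the exception at 0.869 (0.704 to 1.07). Because macrophages carry most of the transcript, the low-level classes can also hold macrophage RNA: in MuSC/myoblast-like cells Tnfrsf1b was 5.20%, 7.22% and 4.81% of the macrophage level, against a macrophage marker median of 1.68%, 2.28% and 1.86%. The part of free RNA in those ratios was not tested.

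Of the adaptors, Tradd and Ripk1 went opposite ways. Tradd, which docks on the death domain of TNFR1, was 17.3, 13.7 and 16.4 CPM in macrophage/monocyte-like cells and 16.4, 10.8 and 13.7 in FAP-like cells. Its age ratios were 0.793 (0.738 to 0.853) and 0.660 (0.578 to 0.753). Both classes were lowest in old PBS and lay between the PBS libraries in old rMETRNL. Ripk1, the kinase that is a scaffold for NF-kB signaling when ubiquitinated and a trigger of cell death when not, was 71.3, 88.5 and 79.1 CPM in macrophage/monocyte-like cells, 79.3, 116 and 91.2 in FAP-like cells and 119, 180.3 and 135 in endothelial-like cells. Old PBS was the highest library in all 3. The FAP ratios were 1.47 (1.40 to 1.54) for age and 0.785 (0.750 to 0.822) for treatment, and 1.15 (1.10 to 1.20) for old rMETRNL over young PBS.

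Traf2, the adaptor that brings ubiquitin ligases to both receptors, had its highest mean in MuSC/myoblast-like cells, with no gap to the next classes. MuSC/myoblast-like cells had 35.0, 26.6 and 28.1 CPM and myocyte-like cells 32.7, 13.9 and 28.2 (34 UMIs in old PBS). T/NK-like cells had 22.2, 25.5 and 24.6 CPM and dendritic-like cells 22.9, 25.4 and 20.99, so that from MuSC/myoblast down to dendritic each class overlapped the next. Macrophage/monocyte-like cells had 14.8, 12.2 and 13.6 CPM and FAP-like cells 11.3, 9.59 and 10.8. Old PBS was the lowest library in the muscle, macrophage and FAP classes.

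Traf1, an NF-kB target that joins TRAF2 on TNFR2, was highest per UMI in dendritic-like and T/NK-like cells. Dendritic-like cells had 632, 770.2 and 755 CPM and T/NK-like cells 255, 273 and 272, while macrophage/monocyte-like cells had 69.6, 58.3 and 61.0 and FAP-like cells 3.22, 2.97 and 3.24. Being numerous, the macrophages still held 53.6%, 57.1% and 47.7% of Traf1 UMIs, against 33.6%, 31.5% and 39.0% in dendritic-like cells. Among dendritic clusters, the one led by Ccr7, Ccl5 and Ccl22, genes of dendritic cells that leave for lymph nodes, had 1406, 1377 and 1648 CPM, whereas the cluster led by Siglech, Ccr9 and Ly6d had 52.7, 43.8 and 139 CPM on few cells (39, 13 and 39). The macrophage age ratio was 0.838 (0.809 to 0.869) and that of dendritic-like cells 1.22 (1.16 to 1.28).

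Of the inhibitors, Tnfaip3 was highest in T/NK-like cells and macrophages, and Cflar in macrophages. Tnfaip3 was 302, 438 and 336 CPM in T/NK-like cells, 193, 234 and 166 in macrophage/monocyte-like cells, 128, 179 and 142 in dendritic-like cells and 104, 133 and 99.0 in endothelial-like cells. Old PBS was the highest library in all 4. FAP-like cells had 50.9, 44.1 and 50.02 CPM, with old PBS the lowest. The age ratio was 1.21 (1.19 to 1.23) in macrophages and 0.867 (0.810 to 0.928) in FAPs, and the treatment ratio 0.710 (0.696 to 0.724) and 1.13 (1.06 to 1.21). Within the 13 macrophage sub-clusters described below the age ratio had a median of only 1.02, above 1 in 9 and below in 4, whereas the treatment ratio was below 1 in 12. Cflar was 187, 231 and 189 CPM in macrophage/monocyte-like cells, 133, 169 and 137 in endothelial-like cells and 62.5, 77.7 and 67.8 in FAP-like cells, highest in old PBS in each. Dendritic-like cells had 118, 175 and 137 CPM, but T/NK-like cells had only 38.9, 52.2 and 53.7, the seventh of the 8 classes by the mean. Its ratios were 1.24 (1.21 to 1.26) and 0.819 (0.804 to 0.835) in macrophages, where old rMETRNL over young PBS was 1.01 (0.993 to 1.03).

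**Figure D2:**
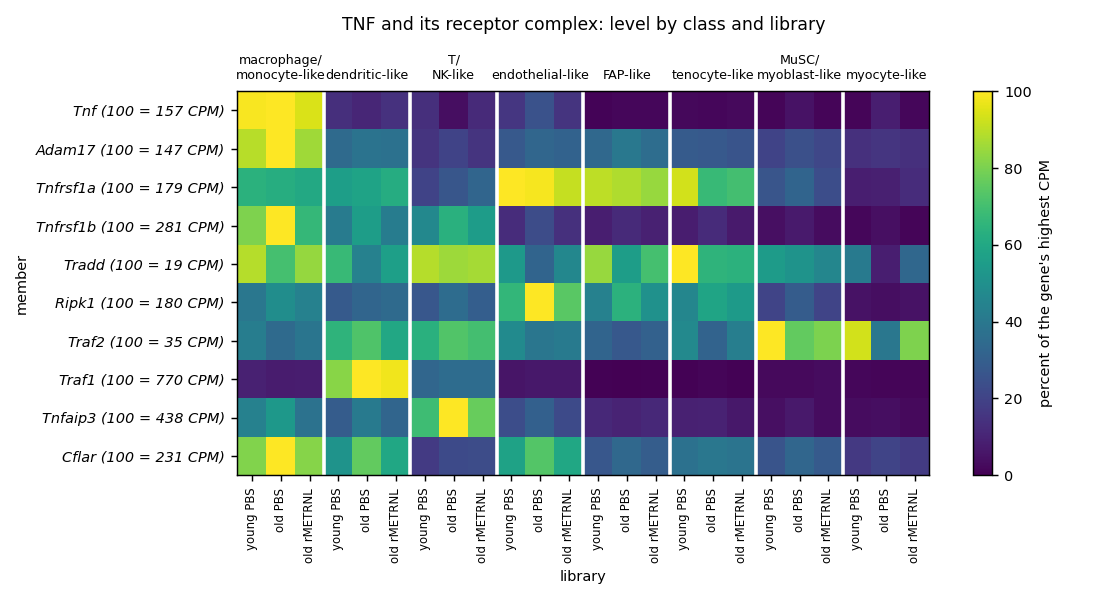
Level of each of the 10 genes in 8 classes and 3 libraries, as a percent of that gene's own highest CPM (given beside its name); rows cannot be compared with each other in level. Tnf and Tnfrsf1b peak in macrophage/monocyte-like cells, Traf1 in dendritic-like cells, Tnfaip3 in T/NK-like cells, Tnfrsf1a in endothelial-like, FAP-like and tenocyte-like cells and Traf2 in the muscle lineage.

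The members that differed clearly in size were counted beside all genes. A gene was counted as higher or lower where the smaller level was at most 0.8 of the larger. In macrophage/monocyte-like cells, of 14317 genes with at least 50 UMIs, 15.9% were higher and 15.1% lower in old PBS than in young PBS, and the members gave 0 higher and 1 lower, Tradd. In the treatment contrast 15.1% of all genes were higher and 11.1% lower, and the members gave 0 higher and 2 lower, Tnfrsf1b and Tnfaip3. For old rMETRNL over young PBS 11.1% were higher and 7.26% lower, and no member was either. The median log2 ratio of the members was 0.09 for age and -0.12 for treatment, against 0.00 and 0.04 over all genes. The count higher with age depended on the setting. It was 3 at the finer clustering, against 15.6% of all genes, 4 as the mean of per-cell CPM, against 20.1%, and 4 with a gate on marker UMIs in place of clusters, against 13.0%. Tnfrsf1b, Cflar and Ripk1 were among them under each of the 3 settings.

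In FAP-like cells (14271 genes), 17.1% of all genes were higher and 18.8% lower in the age contrast, and 3 members were higher, Tnf, Tnfrsf1b and Ripk1, and 1 lower, Tradd. In the treatment contrast the shares were 13.6% higher and 14.3% lower, and Tradd was higher while Tnfrsf1b and Ripk1 were lower. For old rMETRNL over young PBS they were 9.89% higher and 11.5% lower, and Tnf was higher and no member lower. The Tnf counts in FAP-like cells rest on 80, 82 and 109 UMIs, within the range of the macrophage markers there. The counts depended on the clustering: at a finer resolution of 1.6, 4 members were higher with treatment, against 10.8% of all genes, and 4 lower with age, against 20.9%. As the mean of per-cell CPM 0 were higher with treatment, against 12.9%.

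**Figure D3:**
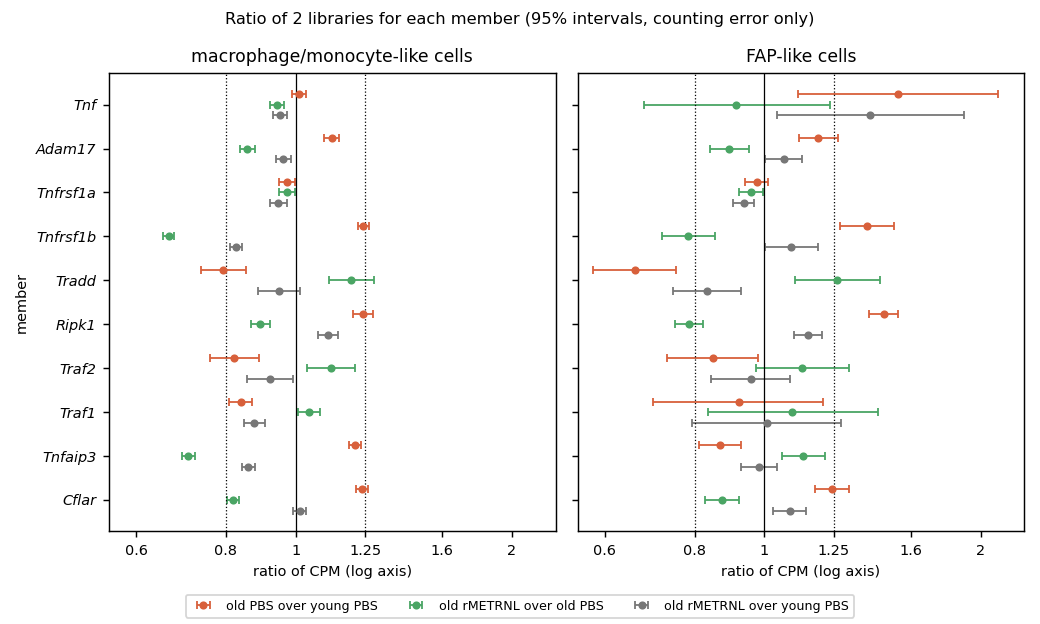
Ratio of CPM of 2 libraries (log axis) for the 10 genes in macrophage/monocyte-like and FAP-like cells, with 95% intervals that cover counting error; solid line 1, dotted lines at 0.8 and its inverse. Tnfrsf1b in macrophages stood at 1.24 for age and 0.666 for treatment, while Tnf and Tnfrsf1a lay near 1 there.

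Seen over all 8 classes, a direction held in every class was rarer. Of 7945 genes with at least 20 UMIs in each class, 2.5% were higher in old PBS than in young PBS in all 8 classes, and Tnfrsf1b and Cflar were 2 of them. Tradd was lower in all 8, as were 6.26% of genes. In the treatment contrast Tnfrsf1b and Adam17 were lower in all 8 classes, as were 1.84% of genes, and no member was higher in all 8, as 5.15% were. For old rMETRNL over young PBS, Cflar and Ripk1 were higher in all 8 classes (2.92% of genes) and Tradd lower in all 8 (2.73%). All these counts use the direction alone. For age the interval excluded 1 in 8 classes for Tnfrsf1b, 5 for Cflar and 5 for Tradd. For treatment it did so in 7 classes for Tnfrsf1b but only 2 for Adam17. For old rMETRNL over young PBS it did so in 2 for Cflar, 5 for Ripk1 and 2 for Tradd. Classes of 1 library share its preparation and free RNA, so that they are not 8 separate observations.

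Macrophage/monocyte-like cells were clustered again without the members and the other pathway genes, which gave 13 sub-clusters after 1 was left out. That one (160, 61 and 258 cells) was led by Ccl8, Cbr2 and F13a1 and was removed by a rule that counted Ighm, a B cell marker, among its leading genes, although all 13 macrophage markers were detected in it. With it kept, the macrophage log2 ratios were 0.035 and -0.11 for Tnf and 0.33 and -0.61 for Tnfrsf1b (age, then treatment). Tnf was concentrated in a pair of them. The sub-cluster led by Il10, Hbegf and Marcksl1 had 506, 506 and 499 CPM, and the one led by Ednrb, F13a1 and Ccl7 had 491, 462 and 383. The first held 17.1%, 31.0% and 14.0% of the Tnf UMIs of the class and 5.3%, 9.6% and 4.1% of all its UMIs. The second held 22.4%, 16.1% and 29.0% of the Tnf UMIs and 7.11%, 5.48% and 11.3% of all UMIs, and so had its smallest share in old PBS, where the first had its largest. At the other end, the sub-clusters led by Hes1, Cxcl9 and Txnip (23.3, 41.8 and 38.0 CPM) and by Hes1, Cd5l and Sox4 (42.2, 38.8 and 31.5 CPM) had little.

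The even class level therefore did not hold in each sub-cluster. Tnf was lower in old PBS than in young PBS in 8 of 13 sub-clusters and higher in 5, with a median ratio of 0.920. The interval of this age ratio was below 1 in 7 and above 1 in 3. The treatment ratio was above 1 in 7 of 13 with a median of 1.05, and its interval was above 1 in 5 and below 1 in 3. In the sub-cluster led by Dnase1l3, Vcam1 and Tspan13 it was 199, 142 and 182 CPM, and in the one led by Hilpda, Ccrl2 and Fbxo32 it was 243, 161 and 209. The sub-cluster led by Hist1h2ae, Pclaf and Top2a, genes of dividing cells, went the other way, with 206, 327 and 275 CPM. Tnfrsf1b kept 1 direction: it was lower in old rMETRNL than in old PBS in 13 of 13 sub-clusters (0.567 to 0.862), and lower than in young PBS in 13 of 13 (0.626 to 0.936). In the age contrast it was above 1 in 11 of 13, with a median of 1.13. Its level in the Ednrb, F13a1 and Ccl7 sub-cluster was 315, 348 and 197 CPM and in the Il10, Hbegf and Marcksl1 sub-cluster 469, 466 and 350 CPM, old rMETRNL being the lowest in both.

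Tnfaip3 and Cflar followed Tnf over the sub-clusters. Tnfaip3 was 516, 513 and 460 CPM in the sub-cluster led by Il10, Hbegf and Marcksl1 and 32.7, 44.9 and 45.2 CPM in the one led by Hes1, Cxcl9 and Txnip. Pearson's r with Tnf over the 13 sub-clusters was 0.92, 0.90 and 0.94 for Tnfaip3 and 0.91, 0.97 and 0.96 for Cflar. It was 0.85, 0.87 and 0.83 for Tnfrsf1a and 0.72, 0.75 and 0.67 for Tnfrsf1b, and negative for Tradd, at -0.70, -0.82 and -0.74. The points of a library share its depth and preparation, and r is given as a description. Immediate early genes, which also respond to dissociation and were listed after the data had been seen, gave r of 0.45, 0.58 and 0.39 with Tnf, and heat shock genes -0.11, 0.09 and 0.00. Traf1 was highest elsewhere, in the sub-cluster led by Ly6c2, Plac8 and Vcan, at 360, 350 and 351 CPM, and was lower in old PBS than in young PBS in 12 of 13 sub-clusters.

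**Figure D4:**
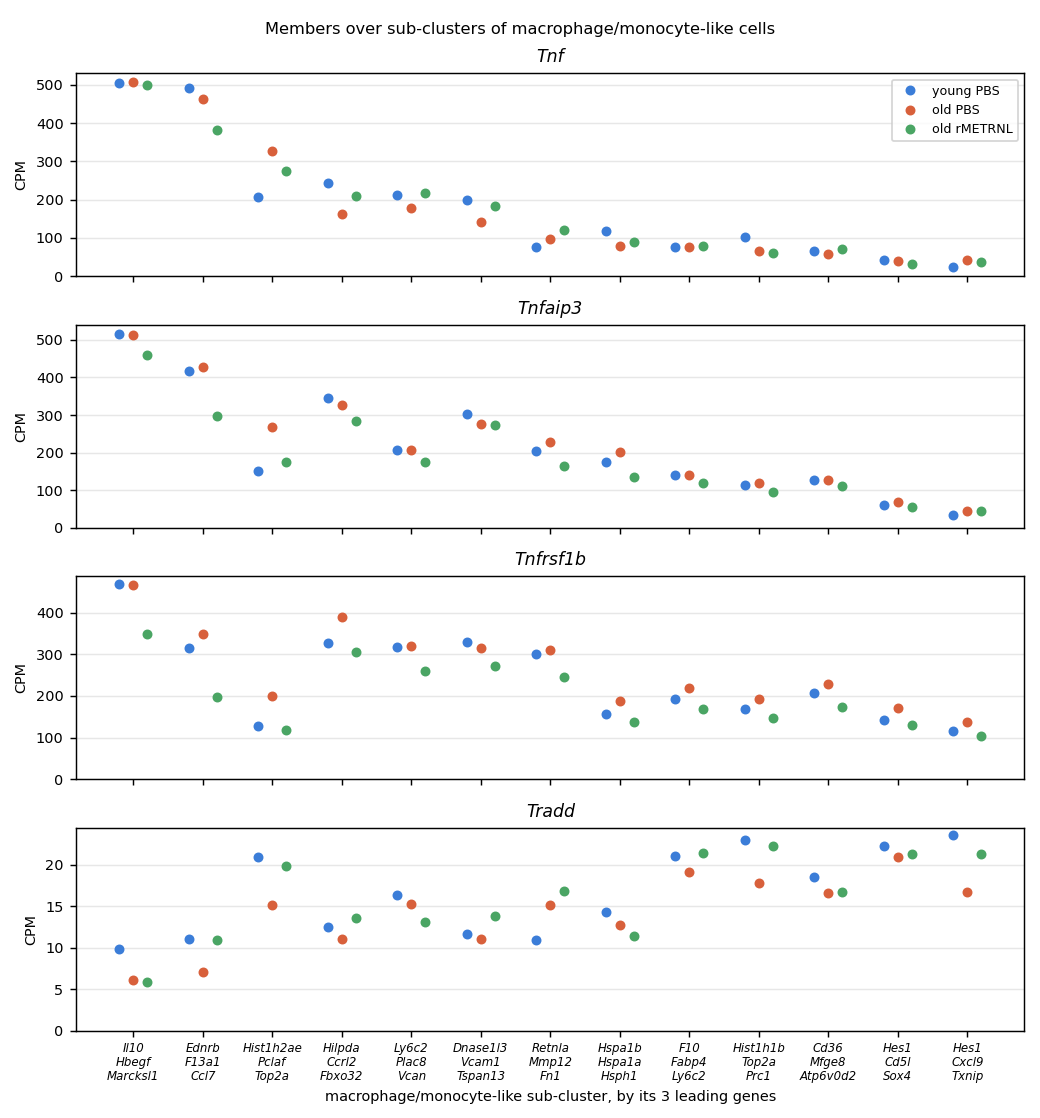
CPM of Tnf, Tnfaip3, Tnfrsf1b and Tradd in 13 sub-clusters of macrophage/monocyte-like cells, ordered by mean Tnf and named by their 3 leading genes; each point is 1 library. Tnf and Tnfaip3 fall broadly together from left to right, from 506, 506 and 499 CPM of Tnf in the first sub-cluster, Tradd is lowest at the left, and the old rMETRNL point of Tnfrsf1b is the lowest of the 3 in every sub-cluster.

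FAP-like cells were clustered the same way, and levels are sums over the cells of a sub-cluster. In the 8 sub-clusters with at least 50 cells in each library Tnfrsf1a was between 107 and 196 CPM. Tnfaip3 differed more: it was 14.8, 6.92 and 13.5 CPM in the sub-cluster led by Trmt1l, Txnip and Ddit4l and 79.7, 49.3 and 58.1 CPM in the one led by Ifit1, Cxcl9 and Cxcl10, a group of interferon-induced genes. In that last sub-cluster Ripk1 was 117, 138 and 128 CPM, against 49.3, 63.9 and 77.2 CPM in the Trmt1l sub-cluster, where Tradd was highest at 28.3, 21.8 and 26.6 CPM. Ripk1 was higher in old PBS than in young PBS in 9 of the 10 sub-clusters in which it could be compared, with a median ratio of 1.29.

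The genes that TNF is known to induce differed between the libraries in FAP-like cells, while Tnf in macrophages and Tnfrsf1a in FAPs were close between libraries. Some other members were not close in FAP-like cells. Tnfrsf1b ranged from 24.02 to 33.4 CPM and was highest in old PBS, as was Ripk1 (79.3, 116 and 91.2 CPM). Tradd was lowest in old PBS (16.4, 10.8 and 13.7 CPM). The part of these members in the response genes was not tested. Of 25 listed response genes, 15 were higher and 1 lower in old PBS than in young PBS, and their median log2 ratio was 0.42, against -0.04 over all genes, of which 17.1% were higher and 18.8% lower. Mmp3, a matrix protease, was 53.5, 117 and 93.4 CPM and Il6, the cytokine, was 204, 416 and 300.4 CPM. The lowest age ratios were those of Ccl5 (15.2, 10.8 and 14.7 CPM) and Ier3 (602, 506 and 567 CPM), and of these Ccl5 alone was below 0.8. With treatment 2 of the 25 were higher and 9 lower, with a median of -0.21, against 0.01 over all genes, of which 13.6% were higher and 14.3% lower. The 9 became 4 at the finer clustering, against 13.1% of all genes, and 5 as the mean of per-cell CPM, against 16.2%. Sele (4.17, 3.53 and 2.02 CPM) and Lif (8.93, 16.6 and 11.3 CPM) had the lowest treatment ratios, at 0.572 and 0.685, and Lcn2 (6.90, 9.33 and 13.7 CPM) and Ccl5 the highest, at 1.46 and 1.36. For old rMETRNL over young PBS 9 were higher and 1 lower, with a median of 0.29, against 9.89% and 11.5% of all genes and a median of -0.01. At the finer clustering these became 14 higher and 2 lower, against 10.1% and 14.0% of all genes.

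The class values did not hold in every sub-cluster. Within the 8 FAP sub-clusters the median age log2 ratio of the list ranged from -0.20 to 0.63 and was above the median of all genes in 6. It was 0.63 in the sub-cluster led by Il11, Inhba and Acta2, whose 10 leading genes held the pericyte/smooth muscle marker Acta2 and no FAP marker and in which the pericyte/smooth muscle list had the highest score of all marker lists. It was 0.59 in the one led by Hist1h1b, Top2a and Cenpf, but 0.08 and 0.04 in those led by Cxcl5, Sfrp1 and Ptx3 and by Ifit1, Cxcl9 and Cxcl10. The sub-cluster led by Trmt1l, Txnip and Ddit4l held 18.8%, 6.19% and 10.2% of the UMIs of the class, and without it 9 in place of 15 genes were higher with age, with a median of 0.28. Without each other sub-cluster in turn 14 to 17 were. The treatment value within sub-clusters was above the median of all genes in 5 of 8 and below it in 3, from -0.36 to 0.66, so that the class value of -0.21 did not hold in most of them. Heat shock genes, which mark stress, summed to 3187, 2292 and 3773 CPM in the class and led 1 sub-cluster, and their part was not tested. In macrophage/monocyte-like cells the same list gave 7 higher and 2 lower for age and 5 higher and 7 lower for treatment, with medians of 0.08 and -0.10. Over all genes in macrophages 15.9% were higher and 15.1% lower for age and 15.1% and 11.1% for treatment, with medians of 0.00 and 0.04. In 6 of the 25, Cxcl5, Il6, Lcn2, Mmp3, Ptx3 and Tnfaip6, the macrophage level was at most 3% of the FAP level in each library, near the share of the summed FAP markers in macrophages (2.02%, 1.11% and 1.61%). Without these 6 the count for age was 2 higher and 2 lower and that for treatment 5 higher and 3 lower, a choice made after seeing the data. With all 25 and a gate on marker UMIs in place of clusters, the balance turned in both contrasts. For age 3 were then higher and 7 lower, against 13.0% and 25.1% of all genes. For treatment 7 were higher and 4 lower, against 22.1% and 10.4%. Within the 13 macrophage sub-clusters the list lay above the median of all genes in 6 and below it in 7 for age (-0.23 to 0.58), and above in 8 and below in 5 for treatment. Il6 (2.48, 6.68 and 3.92 CPM, or 1.22%, 1.605% and 1.305% of its FAP level) and Tnfaip2 (270.2, 407 and 294 CPM) had the highest age ratios and Cxcl10 (364, 147 and 264 CPM) and Lif (2.83, 1.34 and 2.46 CPM) the lowest.

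**Figure D5:**
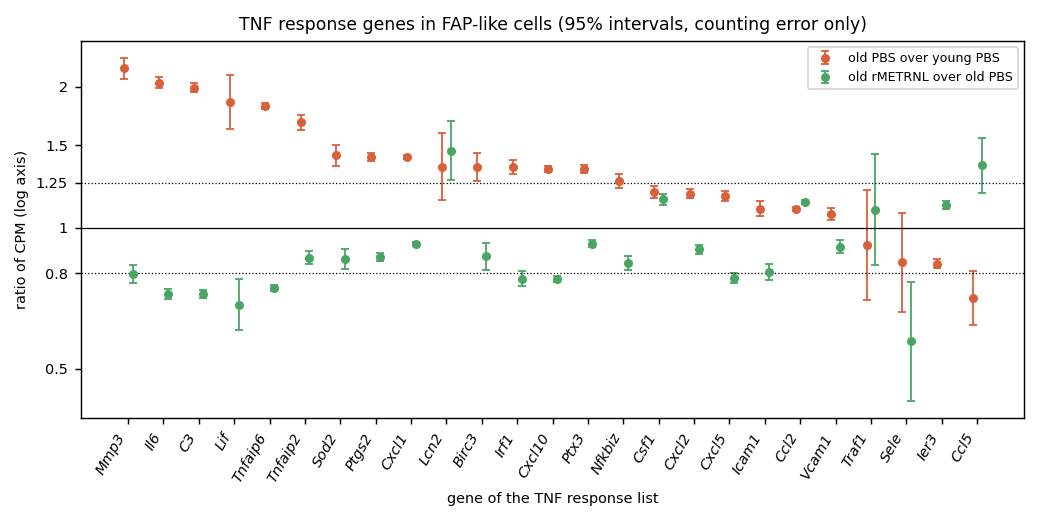
Ratio of CPM (log axis) of the 25 TNF response genes in FAP-like cells, ordered by the age ratio, with 95% intervals that cover counting error; dotted lines at 0.8 and its inverse. In the age contrast 15 genes lie above the upper line and 1 below 0.8, and in the treatment contrast 9 lie below 0.8 and 2 above the upper line.

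Of the death arm of the pathway, 9 genes were listed. In macrophage/monocyte-like cells 0 of 9 genes were higher and 3 lower with age, and 5 higher and 0 lower with treatment, with median log2 ratios of -0.25 and 0.36. Over all genes 15.1% were lower with age and 15.1% higher with treatment, with medians of 0.00 and 0.04. Summed heat shock genes were also lowest in old PBS in these cells, at 2352, 1253 and 2319 CPM, and their part was not tested. The sub-cluster led by Hes1, Cxcl9 and Txnip, with the interferon-induced Cxcl10 and Ifit3b also among its leading genes, held 960, 324 and 541 cells and 11.1%, 2.57% and 5.0% of the UMIs of the class, again lowest in old PBS. Without it the counts were the same, and the medians were -0.23 and 0.35. Within the 13 sub-clusters the median of the list was below that of all genes in 11 for age (-0.53 to 0.14) and above it in 13 for treatment (0.10 to 0.45). Zbp1, a nucleic acid sensor induced by interferon, was 136, 62.5 and 111 CPM and Mlkl, the executor of necroptosis, 13.9, 8.54 and 13.7 CPM. Both were lowest in old PBS. Cflar was the member of the list with the highest age ratio. In FAP-like cells 5 of 9 were lower and 0 higher with age, and 4 higher and 1 lower with treatment, with medians of -0.34 and 0.29. Over all FAP genes 18.8% were lower with age and 13.6% higher with treatment, with medians of -0.04 and 0.01, and summed heat shock genes were 3187, 2292 and 3773 CPM. Within the 8 FAP sub-clusters the list lay below the median of all genes in 5 for age and above it in 6 for treatment. It was -0.60 and 0.53 in the Trmt1l sub-cluster, and without that sub-cluster 3 were lower with age and 3 higher with treatment. In the class Zbp1 was 80.3, 42.7 and 60.8 CPM and Fadd, the adaptor of caspase-8, 4.54, 2.44 and 3.38 CPM. The lowest treatment ratio was that of Bid, at 2.67, 2.44 and 1.95 CPM.

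Of the 5 NF-kB subunits in macrophage/monocyte-like cells, 1 was higher and 0 lower with age, against 15.9% and 15.1% of all genes. With treatment 0 were higher and 3 lower, against 15.1% and 11.1%. Nfkb1, the precursor of p50, was 199, 287 and 196 CPM and Nfkb2 80.4, 84.7 and 64.8 CPM, whereas Relb was 62.2, 61.9 and 56.2 CPM. In FAP-like cells 2 of 5 were higher with age and 3 lower with treatment, against 17.1% and 14.3% of all genes, and Nfkb1 was 371, 567 and 425 CPM.

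A list for complex I held 21 genes, of adaptors, kinases and enzymes that add or remove ubiquitin in TNFR1 signaling. It includes the members Tradd, Ripk1 and Traf2, and the feedback list below includes Tnfaip3, so these counts hold members already reported. Of the 21, 1 was higher and 2 lower with age in macrophages, and 2 higher and 3 lower in FAPs. With treatment 1 was higher and 2 lower in macrophages, and 1 higher and 4 lower in FAPs. Of all genes, 15.9% were higher and 15.1% lower with age and 15.1% and 11.1% with treatment in macrophages, and 17.1% and 18.8%, and 13.6% and 14.3%, in FAPs. Tab1, a subunit of the TAK1 kinase complex, was 5.83, 3.67 and 5.14 CPM in macrophage/monocyte-like cells and Birc2, the ligase cIAP1, 26.7, 33.1 and 25.1 CPM in FAP-like cells. Against the same shares of all genes, of 11 feedback genes and A20 partners 1 was higher and 0 lower with age in macrophages, and 0 higher and 3 lower with treatment. Tnip3, which binds A20, was 74.4, 98.3 and 76.8 CPM. In FAPs 0 were higher and 1 lower with age, and 1 higher and 2 lower with treatment, and Nfkbie, which encodes an inhibitor of NF-kB, was 12.3, 7.75 and 10.8 CPM.

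Of 6 shedding genes, 1 was higher in macrophages and 2 in FAPs with age, and 2 and 1 were lower with treatment. Of all genes 15.9% and 17.1% were higher with age in the 2 classes, and 11.1% and 14.3% lower with treatment. Timp3, the inhibitor of ADAM17, was 86.3, 124 and 89.9 CPM in FAP-like cells and 1.19, 2.57 and 1.41 CPM in macrophages. The macrophage values are 1.38%, 2.08% and 1.56% of the FAP level, near the share of FAP marker RNA, and without Timp3 0 shedding genes were higher with age and 1 lower with treatment in macrophages. Rhbdf2, which carries ADAM17 to the surface in leukocytes, was 48.8, 60.2 and 46.7 CPM in macrophages. Of 6 related ligands, 4 had enough UMIs in macrophages, and of these 3 were lower with age and 1 higher with treatment, against 15.1% of all genes for each. Tnfsf10, which encodes TRAIL, was 6.19, 2.90 and 6.76 CPM, lowest in old PBS. In FAPs 3 had enough UMIs, and 1 was higher and 1 lower with age and 1 higher with treatment, against 17.1%, 18.8% and 13.6% of all genes. Of 6 related receptors in macrophages 1 was higher and 1 lower with age and 2 were lower with treatment, and of 5 in FAPs none was past the fold with age and 2 were lower with treatment, against all-gene shares lower with treatment of 11.1% in macrophages and 14.3% in FAPs. The 1 higher with age in macrophages was Tnfrsf9, at 0.332, 0.430 and 0.196 CPM on 95 UMIs over the 3 libraries. Its age ratio was 1.29 (0.798 to 2.12), and it was also 1 of the 2 lower with treatment. The 1 lower with age was Cd40, at a ratio of 0.797.

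The genes whose levels were most like those of the ligand and receptors over the 24 class and library points, by Pearson's r of log2(CPM + 1) among 13322 genes, differed by member. For Tnf they were Ccrl2 (0.948), Slc30a1 (0.927), Naip2 (0.925), Zfand2a (0.919) and Ninj1 (0.912). For Tnfrsf1a they were Dpysl2 (0.968), Pnp, Tbc1d9b, Ndel1 and Klf6 (0.956), and for Tnfrsf1b Pik3r5 (0.974), Gna13, Rab8b, Galnt7 and Zc3h12a (0.962). The 3 points of a class share its cell type, and the values are a description.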

How the data were processed

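Gene counts of 3 droplet libraries (young PBS, old PBS, old rMETRNL; 1 pooled library each) were analysed. The deposited matrices hold raw UMI counts per gene and barcode made by the authors; the submitters' processing notes name Cell Ranger 5.0.0 and 3.1.0 and build mm10, and the file headers 5.0.0. Depth is given in the report; intervals cover counting error only, and PCR copies are collapsed by UMI.

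Barcodes needed 500 genes or more and a mitochondrial share below 10%. Scrublet's own threshold marked 1, 0 and 0 doublets, so the highest scores were called at 0.8% per 1000 barcodes and removed, and cells were clustered (2000 variable genes, 30 components, 20 neighbours, Leiden resolution 0.8; scanpy 1.11.5, leidenalg 0.10.2) and named from marker lists; the naming and removal rules were set after cluster tables had been seen. UMIs were summed per class and library as CPM. With 1 library per group there is no test: levels have exact Poisson, shares exact Clopper-Pearson and ratios exact conditional 95% intervals. A gene with at least 50 UMIs was counted where 1 level was at most 0.8 of the other, with 0.5 added to each count; the scripts were tested on simulated counts. Of the feature IDs, 99.6% matched the GRCm38 annotation used for coordinates.

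The 10 members and all gene lists were chosen with earlier results of these data known. Named genes were the members, and per list the 2 highest and 2 lowest ratios among genes with at least 200 UMIs. Other thresholds, filters, resolutions, thinning, gates, TMM factors (edgeR 4.0.16) and weights were tried as alternatives. B, glial and pericyte/smooth muscle cells and a cluster led by S100a9 were too few for comparison.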

Additional observations from a re-analysis of the deposited data

Results flagged for a closer look

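Tnf differed between classes in the age contrast. Against a ratio of 1.01 in macrophage/monocyte-like cells, old PBS over young PBS was 1.53 in FAP-like, 1.58 in endothelial-like, 3.28 in MuSC/myoblast-like and 7.23 in myocyte-like cells, and 0.273 in T/NK-like cells, each interval lying apart from that of macrophages. In the treatment contrast the macrophage ratio was 0.943, and it was 3.32 in T/NK-like, 0.604 in endothelial-like, 0.309 in MuSC/myoblast-like and 0.194 in myocyte-like cells. All but the endothelial values rest on 109 or fewer Tnf UMIs in a library, and the myocyte-like class held different sub-clusters in young PBS and old PBS. Tnfrsf1a in old rMETRNL over young PBS was 1.63 in T/NK-like, 1.49 in myocyte-like and 0.753 in tenocyte-like cells, against 0.947 in macrophage/monocyte-like cells. With 1 library per group the difference between classes was not tested. These classes were picked out because their ratios lay past 0.8 or its inverse, in opposite directions between classes, with intervals that excluded 1.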

How the results depend on the processing

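No paired analysis was possible because each group is 1 library, and for the same reason no replicate could be left out. Log2 ratios are given as old PBS over young PBS (age) and old rMETRNL over old PBS (treatment). Tnf in macrophage/monocyte-like cells (0.014 for age, -0.084 for treatment) became -0.11 and -0.019 with the stricter cell filter, 0.074 and -0.12 with doublet calls kept, 0.064 and -0.15 when clustered without the pathway genes, 0.21 and -0.23 as the mean of per-cell CPM, 0.15 and -0.20 with a gate by UMIs, and -0.080 and 0.014 with sub-clusters weighted equally, so that its direction depends on the setting. Tnfrsf1b there (0.31 and -0.59) became 0.34 for age with doublet calls kept, -0.63 for treatment at resolution 1.6 and -0.62 as the mean of per-cell CPM, 0.43 and -0.68 with the gate, and 0.14 and -0.42 with equal weights. Its count of classes with the same direction was 8 in both contrasts under 4 of the 5 settings run and 7 with the stricter filter. Tnfrsf1a in FAP-like cells (-0.03 and -0.06) became -0.11 and 0.020 at resolution 1.6 and -0.12 and 0.014 as the mean of per-cell CPM, so that its treatment difference also turned direction. The equal weights, the left-out sub-clusters, the counts of response genes and the count of classes for Tnfrsf1b were added after seeing the data.

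Of the members counted in macrophages, those higher with age (0) became 2 with doublet calls kept, 3 at resolution 1.6, 1 both without the pathway genes and with the left-out sub-clusters kept, and 4 both as the mean of per-cell CPM and with the gate. Those lower with age (1) became 2 with the gate and 0 at a fold of 1.5, those higher with treatment (0) became 1 as the mean of per-cell CPM, and those lower with treatment (2) became 1 at a fold of 1.5. In FAPs those higher with age (3) became 1 at a fold of 1.5, and those lower (1) became 4 at resolution 1.6 and 2 as the mean of per-cell CPM. Those higher with treatment (1) became 4 at resolution 1.6 and 0 as the mean of per-cell CPM and at a fold of 1.5, and those lower (2) became 1 and 0 with the latter settings. Of those past the fold in old rMETRNL over young PBS, the higher (1) became 0 with doublet calls kept, 2 with the gate and 0 at a fold of 1.5, and the lower (0) became 1 with the gate. In macrophages, TNF response genes higher with age (7) became 2, and those lower with treatment (7) became 3, without genes near the level of FAP marker RNA. With the gate those higher with age (7) became 3 and those lower with age (2) became 7. Those higher with treatment (5) became 7 and those lower (7) became 4 with it. At a minimum of 200 UMIs those higher with age became 4. TNF response genes in FAPs that were higher with age (15) became 6 at a fold of 1.5, and those lower with treatment (9) became 4 at resolution 1.6, 5 as the mean of per-cell CPM and 1 at a fold of 1.5. With single sub-clusters left out, also chosen after seeing the data, those 15 became 9 without the one led by Trmt1l, Txnip and Ddit4l, and those 9 became 5 without the one led by Hist1h1b, Top2a and Cenpf. Death arm genes in FAPs that were lower with age (5) became 3 without the former, and those higher with treatment (4) became 3 to 5. In macrophages those higher with treatment (5) became 3 without the sub-cluster led by Dnase1l3, Vcam1 and Tspan13 or the one led by Hist1h2ae, Pclaf and Top2a.

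The share of macrophages with a Tnf UMI (21.1%, 23.6% and 21.1%) was 34.9%, 37.0% and 34.7% thinned to 5000 UMIs, 51.4%, 57.4% and 53.1% without thinning, and 7.02%, 8.27% and 7.38% for at least 2 UMIs. With doublet calls kept it was 19.8% for young PBS and 19.6% for old rMETRNL. Of the other ratios of single members, 57 moved beyond their interval and 375 did not. Where values moved, the cause was not tested.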

Other observations

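The cells of the unnamed cluster led by S100a9, S100a8 and Ifitm6 were too few for the comparisons, at 103, 44 and 190 cells in the 3 libraries (young PBS first, then old PBS and old rMETRNL). Their Tnf level was 157, 307 and 226 CPM on 138, 84 and 317 UMIs, in the range of macrophages or above it, and its macrophage markers summed to 23046.5, 17811.9 and 23903.9 CPM, against 28332.5, 25747.4 and 26708.5 CPM in the macrophage class. Tnfrsf1b was 248, 449 and 275 CPM, Tnfaip3 144, 321 and 167 CPM, and Cflar 264, 373 and 272 CPM, each highest in old PBS, while Tnfrsf1a was 183, 183 and 186 CPM. Pericyte/smooth muscle-like cells numbered 83, 104 and 76. They had Tnfrsf1a at 206, 252 and 216 CPM and Tnfrsf1b at 9.54, 25.9 and 15.6 CPM (7, 15 and 8 UMIs). The kinase gene Ripk1 was at 110.4, 199 and 109 CPM, and Tnf had 1, 11 and 3 UMIs. Glial-like cells held 0, 2 and 2 Tnf UMIs.

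The dendritic cluster led by Siglech, Ccr9 and Ly6d had Tnfrsf1b at 46.8, 61.4 and 83.1 CPM, and the Ccr7 cluster 195, 227 and 179 CPM, with Tnfrsf1a at 26.3, 73.4 and 74.6 CPM in the latter on few cells (71, 50 and 63).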
